A study of Mus musculus with 18 samples.

Results

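The 7 genes Socs3, Stat3, Lifr, Il6st, Bcl3, Junb and Pim1 were taken by name, as the receptor, transducer and target genes of the leukaemia inhibitory factor (LIF) and STAT3 pathway, from a table of 25239 genes. All 7 passed the filter on low counts, which kept 16582 genes. RNA was sequenced from mouse cells in 9 conditions with 2 libraries each, 18 libraries in all. Wild-type (WT) cells were of the E14Tg2a embryonic stem cell (ESC) line, and TKO cells were 1 clone of that line from which the reading frames of Tet1, Tet2 and Tet3, the genes of the enzymes that oxidise methylated cytosine in DNA, had been excised with CRISPR/Cas9. ESCs were moved from LIF-containing medium to Activin and Fgf to give epiblast-like cells (EpiLCs), and the EpiLCs were then aggregated with or without a mix of BMP4, BMP8a, SCF, LIF and EGF, which induces primordial germ cell-like cells (PGCLCs). The conditions were WT and TKO EpiLCs (day 0), WT cells without cytokines at days 2 and 6, WT cells with cytokines at day 6, and TKO cells of either treatment at each of these days. The counterpart, WT aggregates given cytokines and taken at day 2, was not used here. LIF was always given together with the other cytokines, so the part of LIF in any difference cannot be told apart from theirs. The study describes the WT cells with cytokines at day 6 as sorted for PGCLC surface markers, whereas the labels call them aggregates, and sorting cannot be told apart from the cytokines in WT cells. The study describes the other conditions as whole aggregates, so sorting likewise cannot be told apart from genotype where WT and TKO cells with cytokines, or their cytokine effects, are compared.

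LIF binds a receptor made of LIFR, which gives the specificity, and gp130, the subunit that Il6st encodes and that all cytokines of the interleukin 6 family share. Ligand binding activates Janus kinases on the receptor, which phosphorylate STAT3, and phosphorylated STAT3 dimers enter the nucleus and bind DNA. SOCS3 is a target that feeds back on the receptor and the kinases, BCL3 is a nuclear partner of NF-kappa B, JUNB is a subunit of the AP-1 transcription factor and PIM1 is a serine/threonine kinase. In mouse ESCs the pathway is known for holding cells in naive pluripotency, and LIF is a usual part of the medium in which PGCLCs are made.

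Total counts per library ran from 11286050 to 41257861 with a median of 16305168. Counts were divided by size factors to give normalised read counts, and for each difference the quasi-likelihood test of edgeR was run in 1 fit of all 18 libraries, with a call at a Benjamini-Hochberg adjusted p below 0.05 over all genes tested. Reads of Rn45s, a ribosomal RNA locus, made up 16.2% to 31.3% of counts in aggregates without cytokines and 31.7% to 37.3% with them. The summed level of Tet1, Tet2 and Tet3 was 231 to 964 CPM (counts scaled to a common library size) in the WT libraries and 43.8 to 141 CPM in the TKO libraries, although Tet2 alone was higher in TKO cells than in WT cells at day 2 without cytokines (355 and 405 against 200 and 287 normalised counts). Tet1 overlapped between the genotypes without cytokines, with 1200 to 1937 in TKO and 1754 to 2028 in WT cells at day 2 and 737 to 998 and 595 to 1304 at day 6. Whether the remaining reads come from exons outside the excised parts was not tested. The labels call the WT cells at day 6 PGCLC aggregates both with and without cytokines, and markers of cell types were set beside them. In WT cells with cytokines at day 6, 8 germ cell markers summed to 1233 to 1348 CPM and in those without to 36.3 to 77.6 CPM, while 8 neural markers summed to 39.6 to 46.4 and to 2685 to 2881 CPM. The cells without cytokines were thus low in germ cell markers despite that label. The WT groups at day 6 thus differed in these markers as well as in cytokines, and the part of this in the results below was not tested. In these bulk libraries fewer cells of a type and less RNA per cell cannot be told apart. The replicates of this WT condition without cytokines also stood furthest from each other of all 9 pairs.

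The genes lie on 6 chromosomes of the mouse genome (GRCm38.p6 coordinates from RefSeq, the same assembly as the mm10 build of the counts), with Socs3 and Stat3 both on chromosome 11. Socs3 is at chr11:117966079-117970336, Stat3 at chr11:100886806-100939594, Lifr at chr15:7090610-7197489, Il6st at chr13:112464070-112506860, Bcl3 at chr7:19808462-19822824, Junb at chr8:84976909-84978748 and Pim1 at chr17:29490785-29496111. Lifr, Il6st and Pim1 are on the plus strand and the others on the minus strand. Counts were of exons and were made without regard to strand. In the GENCODE M21 annotation 72 exonic bases of Stat3 are shared with Stat5a, 55 of Bcl3 with Gm16175 and 468 of Pim1 with Gm26885, each on the opposite strand, and reads there cannot be told apart by strand.

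The 250 bases before the start given in the RefSeq promoter table are shown for Socs3, Bcl3 and Junb, because these 3 members were higher with cytokines in every comparison. Each is written 5′ to 3′ on the minus strand of GRCm38.p6, with capitals for the palindromic STAT motif TTCNNNGAA, in which N is any base. The windows are chr11:117969367-117969616 for Socs3, chr7:19822756-19823005 for Bcl3 and chr8:84978749-84978998 for Junb.
Socs3: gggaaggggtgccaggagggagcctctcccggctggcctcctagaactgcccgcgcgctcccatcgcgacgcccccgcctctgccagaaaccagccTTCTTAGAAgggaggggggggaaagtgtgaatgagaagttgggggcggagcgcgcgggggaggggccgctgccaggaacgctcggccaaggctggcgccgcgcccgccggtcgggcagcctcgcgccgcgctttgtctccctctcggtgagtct
Bcl3: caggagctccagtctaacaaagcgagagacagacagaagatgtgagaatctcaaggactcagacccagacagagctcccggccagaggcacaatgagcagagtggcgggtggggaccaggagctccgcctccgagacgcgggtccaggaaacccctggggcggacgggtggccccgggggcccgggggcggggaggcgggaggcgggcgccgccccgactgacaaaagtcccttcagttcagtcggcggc
Junb: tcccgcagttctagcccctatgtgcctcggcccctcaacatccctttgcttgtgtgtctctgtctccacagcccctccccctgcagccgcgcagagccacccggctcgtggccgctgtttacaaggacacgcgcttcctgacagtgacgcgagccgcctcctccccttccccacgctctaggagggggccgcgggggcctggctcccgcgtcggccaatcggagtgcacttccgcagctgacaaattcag
The motif was searched in windows from 250 bases before to 50 bases after each start, where both strands give the same matches. Of the 9 windows that the RefSeq table holds for the 7 members, only that of Socs3 had a match, the capitals above, whose first base lies at -154 from the start. Over all 32851 windows of the table, 8.3% held the motif. The coordinates above are the outermost RefSeq spans, which can begin upstream of the start that the promoter table uses: the Socs3 window lies wholly inside the span of Socs3, and the Bcl3 window partly inside that of Bcl3. The start used in that table for Socs3 is 180 bases upstream of the start of the GENCODE transcript, so that the bases nearest to the GENCODE start were not searched. A match is a description of letters and not a binding site.

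The comparison of cells with and without cytokines asked which of the pathway genes followed the addition of the mix. Socs3, Bcl3 and Junb were higher with cytokines in all 3 comparisons that the series allows, by 3.48-fold to 93.3-fold. Lifr, Il6st and Pim1 were higher with cytokines in WT cells at day 6 and did not pass the test in TKO cells at either day. Stat3 did not pass the test in any of the 3. In WT cells at day 6, 6 of the 7 members were therefore higher and none lower, where 58.2% of all genes tested were called in that comparison and 29.6% of all genes tested were called as higher, so that most genes of any kind differed there. In TKO cells 3 of 7 members were higher and none lower at day 2, where 4.52% of all genes were called (2.05% of all genes as higher), and 3 of 7 at day 6, where 5.61% were called (2.56% of all genes as higher). The median log2 fold change of the 7 members was 2.83 in WT cells at day 6 against 0.01 over all genes tested, 0.57 against -0.03 in TKO cells at day 2, and 0.58 against 0.03 in TKO cells at day 6.

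**Figure D1:**
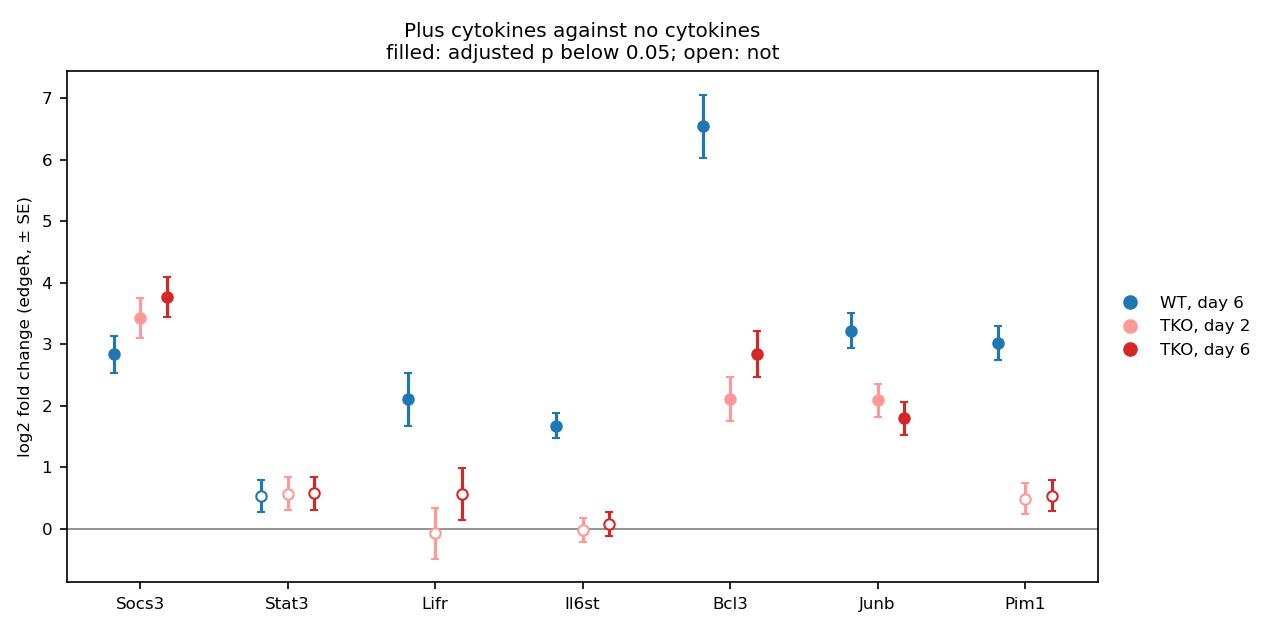
Log2 fold change of cells with cytokines over cells without for the 7 genes (y axis, points, with the standard error of the edgeR fit as bars) in WT cells at day 6 and TKO cells at days 2 and 6; filled points passed an adjusted p of 0.05. Socs3, Bcl3 and Junb are filled in all 3 comparisons, Stat3 in none, and Lifr, Il6st and Pim1 in WT cells alone.

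Both receptor subunits were higher with cytokines in WT cells and did not pass in TKO cells. Lifr read 915 and 383 normalised counts in the 2 WT libraries without cytokines at day 6 and 2575 and 2903 in the 2 with them. The groups did not overlap, although the libraries without cytokines lay far apart, and the fold change was 4.31 (log2 2.11 ± 0.43 SE, adjusted p = 0.000639 in edgeR). In TKO cells at day 2 Lifr read 932 and 912 without and 691 and 1043 with cytokines, which overlap (log2 -0.07 ± 0.42, adjusted p = 0.939). At day 6 the TKO values were 863 and 950 without and 1270 and 1386 with cytokines. These did not overlap, but the difference did not pass (log2 0.57 ± 0.42, adjusted p = 0.453).

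Il6st, the gp130 gene, read 653 and 841 normalised counts in WT cells without cytokines at day 6 and 2317 and 2316 with them, a fold change of 3.19 (log2 1.67 ± 0.20, adjusted p = 4.3e-06 in edgeR). Both libraries with cytokines were above both without. In TKO cells Il6st read 1205 and 1162 without and 1092 and 1211 with cytokines at day 2, and 985 and 1116 without and 1008 and 1188 with cytokines at day 6. The TKO groups overlapped at both days, with log2 fold changes of -0.02 ± 0.20 (adjusted p = 0.961) and 0.08 ± 0.20 (adjusted p = 0.85). With cytokines at day 6 the TKO level of Il6st was 0.473 of the WT level.

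Stat3, the transducer, was the member that passed the test in none of the 3 cytokine comparisons. It read 596 and 373 normalised counts in WT cells without cytokines at day 6 and 681 and 695 with them. In TKO cells it read 502 and 704 without and 750 and 1018 with cytokines at day 2, and 515 and 598 without and 805 and 842 with cytokines at day 6. The libraries with cytokines lay above those without in each of the 3 comparisons, with no overlap, yet no difference passed the test: the log2 fold changes were 0.54 ± 0.26 (adjusted p = 0.0929), 0.57 ± 0.27 (adjusted p = 0.208) and 0.58 ± 0.27 (adjusted p = 0.21) in edgeR. Without WT_day6_no_cytokines replicate 1, the WT difference rose to log2 0.92 (adjusted p = 0.0141). These counts are of RNA, and the phosphorylation that activates STAT3 was not measured in them.

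Socs3, the feedback inhibitor, had the highest fold change of the 7 members in TKO cells at both days. It read 171 and 102 normalised counts in WT cells without cytokines at day 6 and 949 and 973 with them, a fold change of 7.13 (log2 2.83 ± 0.31, adjusted p = 1.48e-06 in edgeR). In TKO cells at day 2 it read 58.1 and 106 without and 910 and 828 with cytokines, a fold change of 10.8 (log2 3.43 ± 0.32, adjusted p = 7.12e-05). In TKO cells at day 6 it read 126 and 109 without and 1937 and 1243 with cytokines, a fold change of 13.7 (log2 3.77 ± 0.32, adjusted p = 2.52e-05). Every library with cytokines was above every library without, over both genotypes and all days. The lowest library with cytokines read 828 and the highest without read 181, in WT cells at day 2.

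Bcl3 had almost no reads in WT cells without cytokines at day 6, with 9 and 0 raw counts. Its normalised counts were 4.08 and 0 there and 286 and 242 with cytokines. The fitted fold change of 93.3 (log2 6.54 ± 0.51, adjusted p = 5.22e-08 in edgeR) rests on these few reads, and its log2 value ran from 6.03 to 11.07 over the alternatives tried. In TKO cells Bcl3 read 114 and 142 without and 526 and 567 with cytokines at day 2, a fold change of 4.32 (log2 2.11 ± 0.36, adjusted p = 0.00547). At day 6 it read 84.0 and 80.8 without and 726 and 442 with cytokines, a fold change of 7.14 (log2 2.84 ± 0.37, adjusted p = 0.000785). The groups were apart in all 3 comparisons. The TKO call at day 2 was lost without TKO_day2_no_cytokines replicate 1 (log2 1.97, adjusted p = 0.0733) and without TKO_day2_no_cytokines replicate 2 (log2 2.27, adjusted p = 0.0623).

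Junb read 71.2 and 32.4 normalised counts in WT cells without cytokines at day 6 and 484 and 502 with them, a fold change of 9.34 (log2 3.22 ± 0.29, adjusted p = 1.97e-07 in edgeR). In TKO cells at day 2 it read 234 and 279 without and 1069 and 1084 with cytokines, a fold change of 4.25 (log2 2.09 ± 0.27, adjusted p = 0.000892). At day 6 it read 164 and 208 without and 739 and 542 with cytokines, a fold change of 3.48 (log2 1.80 ± 0.27, adjusted p = 0.00189). No groups overlapped. The WT libraries without cytokines at day 6 held less Junb than any other library, below those of WT cells at day 2 (375 and 359).

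Pim1, the kinase gene, read 355 and 558 normalised counts in WT cells without cytokines at day 6 and 4032 and 3158 with them, a fold change of 8.14 (log2 3.03 ± 0.27, adjusted p = 2.43e-07 in edgeR). In TKO cells it was already high without cytokines, with 2340 and 2106 at day 2 and 2341 and 2289 at day 6, against 3550 and 2644 and 3264 and 3405 with cytokines. The TKO groups did not overlap at either day, but the log2 fold changes of 0.49 ± 0.25 (adjusted p = 0.251) and 0.54 ± 0.25 (adjusted p = 0.219) did not pass. The lowest TKO library without cytokines after aggregation (2106) was above the highest WT library without cytokines at day 6 (558).

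**Figure D2:**
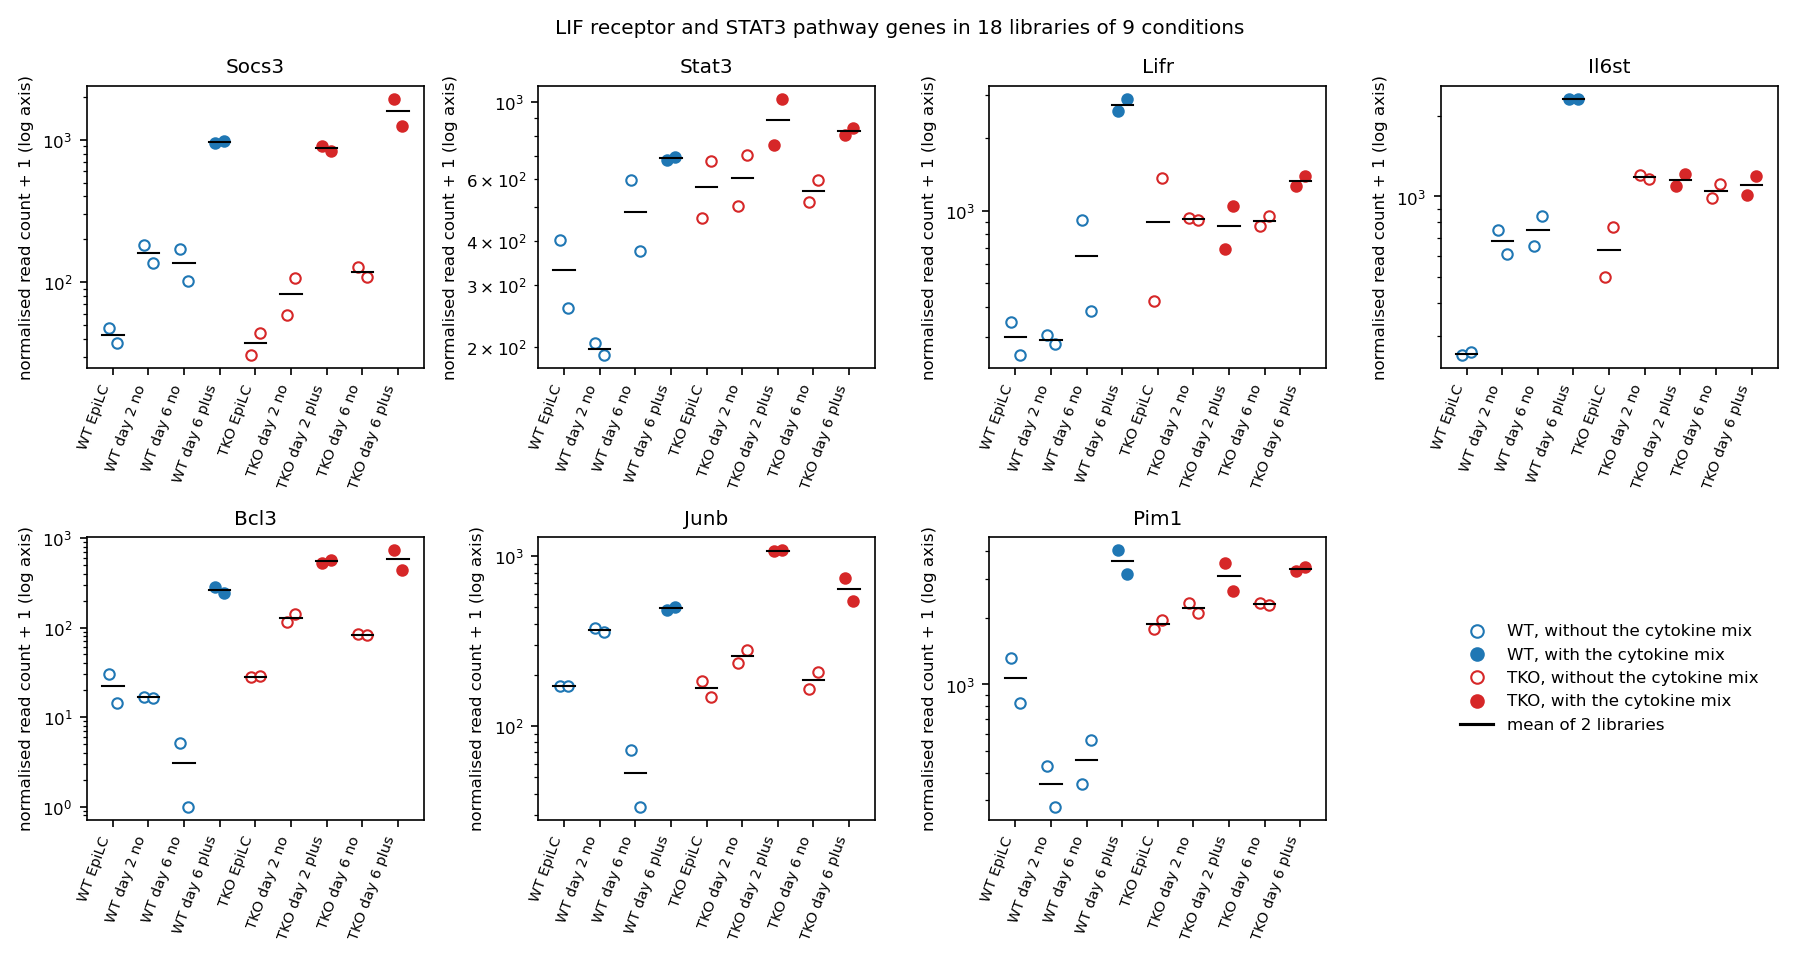
Normalised read count plus 1 (y axis, log scale, a separate range in each panel) of the 7 genes in the 18 libraries, by condition (x axis); points are libraries, open without and filled with the cytokine mix, blue for WT and red for TKO, and black lines are means of 2 libraries. Socs3 separates filled from open points in both genotypes, whereas Lifr and Il6st peak in WT cells with cytokines and Pim1 is high in all TKO libraries.

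Whether the response differed between the genotypes was tested as the cytokine effect in WT cells minus that in TKO cells at day 6. The difference passed the test for 5 of the 7 members, each with the larger effect in WT cells, where 42.9% of all genes were called in that test and 22% of all genes with the larger effect in WT. It was log2 3.71 ± 0.64 for Bcl3 (adjusted p = 0.000285 in edgeR), 2.48 ± 0.36 for Pim1 (adjusted p = 7.11e-05) and 1.59 ± 0.28 for Il6st (adjusted p = 0.000342). For Junb it was 1.42 ± 0.38 (adjusted p = 0.00699) and for Lifr 1.54 ± 0.59 (adjusted p = 0.047). The Lifr call was lost in 10 of the 16 alternatives, with adjusted p-values up to 0.12, and the Junb call when only the libraries compared were fitted (adjusted p = 0.0554). Socs3 had the smaller effect in WT cells, at -0.94 ± 0.42, which did not pass (adjusted p = 0.0817), and passed without WT_day6_no_cytokines replicate 2 (-1.23, adjusted p = 0.017) and without TKO_day6_plus_cytokines replicate 2 (-1.22, adjusted p = 0.0385). Stat3 differed by -0.04 ± 0.37 (adjusted p = 0.942).

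The cytokine effect in TKO cells was also compared between days. None of the 7 members passed, and edgeR called 0 of the 16582 genes (0%), with 717 at an unadjusted p below 0.05 and none of the members among these, while DESeq2 called 3 genes. The largest differences among the members, day 6 minus day 2, were log2 0.72 ± 0.50 for Bcl3 and 0.64 ± 0.59 for Lifr (adjusted p = 1 for both in edgeR, rounded).

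TKO and WT cells were compared within each condition that both had. Il6st was higher in TKO cells in the 3 conditions without cytokines and lower with cytokines at day 6, and Pim1 was higher in the same 3 conditions without cytokines and did not pass with them. In EpiLCs 3 of 7 members were higher in TKO and none lower, where 10.8% of all genes were called. At day 2 without cytokines 5 were higher and 1 lower, where 32.8% were called. At day 6 without cytokines 4 were higher and none lower, where 55.4% were called, and at day 6 with cytokines 1 was higher and 1 lower, where 18.9% were called. TKO cells were 1 clone, so a difference from WT cells cannot be told apart from a property of that clone.

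In EpiLCs Il6st read 497 and 765 normalised counts in TKO and 254 and 261 in WT cells, a log2 fold change of 1.32 ± 0.21 (adjusted p = 0.00125 in edgeR). Lifr read 422 and 1368 in TKO EpiLCs and 345 and 251 in WT EpiLCs. The pair of TKO libraries lay further apart than the lower of them lay from WT, and the log2 fold change of 1.63 ± 0.44 (adjusted p = 0.028) fell to 0.54 (adjusted p = 0.468) without TKO_EpiLC replicate 2. Leaving out any of the other 3 EpiLC libraries gave 1.43 to 2.25 for Lifr, with the call lost without either WT library. Pim1 read 1787 and 1948 in TKO and 1317 and 827 in WT EpiLCs (log2 0.84 ± 0.26, adjusted p = 0.0478), and this call was lost without any 1 of the 4 libraries. Stat3 read 465 and 676 in TKO and 403 and 257 in WT EpiLCs, which did not pass (log2 0.84 ± 0.27, adjusted p = 0.061) but passed under 5 of the 12 alternatives, among them DESeq2 (adjusted p = 0.0436) and library size alone (1.14, adjusted p = 0.00636). Socs3, Bcl3 and Junb overlapped between the genotypes in EpiLCs.

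At day 2 without cytokines Pim1 was 6.15-fold higher in TKO than in WT cells, where it read 430 and 280 (log2 2.62 ± 0.27, adjusted p = 5.36e-06 in edgeR). Bcl3 was 7.97-fold higher, against 15.6 and 15.5 in WT cells (log2 2.99 ± 0.42, adjusted p = 8.22e-05). Stat3 was 3.01-fold higher, against 204 and 188 (log2 1.59 ± 0.28, adjusted p = 0.000501). Lifr, with 305 and 279 in WT cells, and Il6st, with 751 and 609, were 3.09-fold and 1.71-fold higher (adjusted p = 0.00977 and 0.00804), and each lost its call without 1 or more of the 4 libraries. Socs3 went the other way, with 58.1 and 106 in TKO against 181 and 136 in WT cells (log2 -0.99 ± 0.32, adjusted p = 0.0253). Junb was also lower in TKO cells without overlap, with 234 and 279 against 375 and 359. The Junb difference did not pass (log2 -0.55 ± 0.26, adjusted p = 0.117 in edgeR) but did with only the libraries compared (-0.53, adjusted p = 0.0351). The Socs3 call was lost without WT_day2_no_cytokines replicate 1 (adjusted p = 0.137) and without TKO_day2_no_cytokines replicate 1 (adjusted p = 0.253).

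At day 6 without cytokines the largest differences were those of the targets Bcl3, Pim1 and Junb. Bcl3 was higher in TKO cells by log2 4.85 ± 0.52 (adjusted p = 2.01e-06 in edgeR), against the 9 and 0 raw counts in WT cells. Pim1 was higher by 2.37 ± 0.27 (adjusted p = 3.35e-06) and Junb by 1.79 ± 0.28 (adjusted p = 8.01e-05). Il6st was higher by 0.51 ± 0.20 (adjusted p = 0.038), a call lost without WT_day6_no_cytokines replicate 1 (0.33, adjusted p = 0.221) and without either TKO library. Socs3, Stat3 and Lifr overlapped between the genotypes here.

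At day 6 with cytokines the difference in Il6st was turned round, with the TKO level lower by log2 1.08 (log2 fold change -1.08 ± 0.20, adjusted p = 0.00175 in edgeR). Lifr was also lower in TKO cells, without overlap, but did not pass (-1.05 ± 0.42, adjusted p = 0.0936). Bcl3 was 2.2-fold higher in TKO cells (log2 1.14 ± 0.34, adjusted p = 0.0304), and this call was lost without WT_day6_plus_cytokines replicate 1, WT_day6_plus_cytokines replicate 2 or TKO_day6_plus_cytokines replicate 1 (log2 1.26, 1.02 and 0.73). Socs3, at log2 0.72 ± 0.28 (adjusted p = 0.0885), Junb, at 0.37 ± 0.26 (adjusted p = 0.341), and Pim1, at -0.11 ± 0.25 (adjusted p = 0.799), did not pass.

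**Figure D3:**
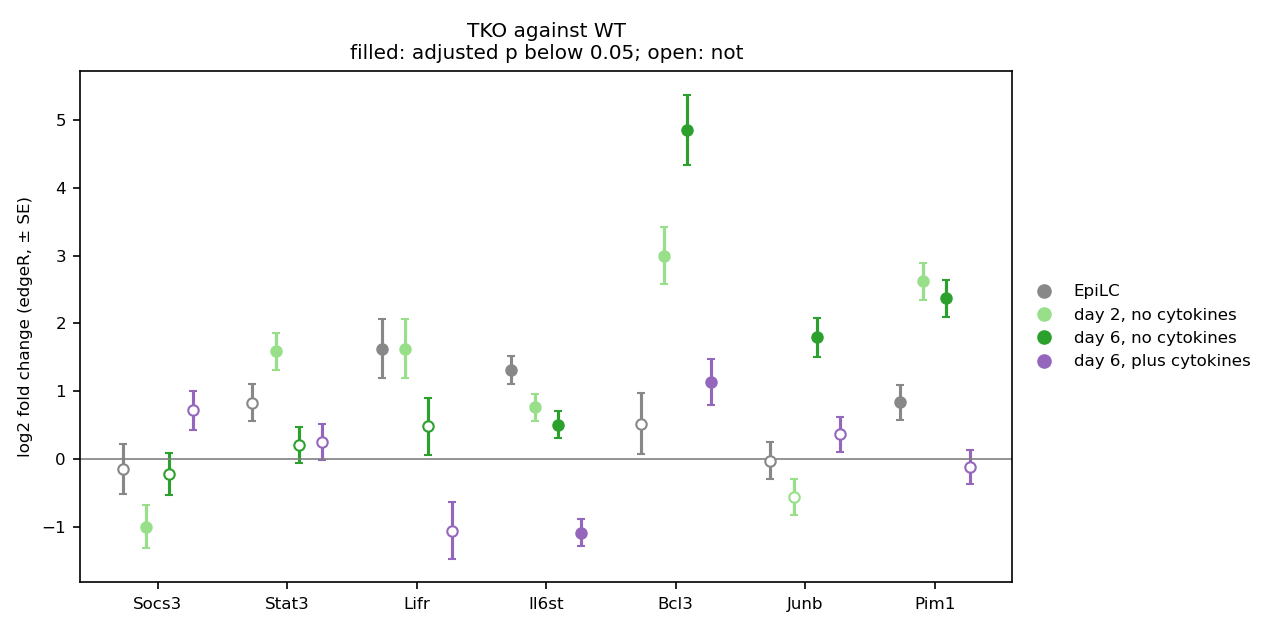
Log2 fold change of TKO over WT cells for the 7 genes (y axis, points, with the standard error of the edgeR fit as bars) in EpiLCs, without cytokines at days 2 and 6, and with cytokines at day 6; filled points passed an adjusted p of 0.05. Pim1 and Bcl3 are high in TKO cells without cytokines at days 2 and 6, and Il6st changes sign between day 6 without and with cytokines.

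Against the EpiLCs from which the aggregates were made, all 7 members were higher in WT cells with cytokines at day 6, where 40.6% of all genes were called. The log2 fold changes ran from 1.12 ± 0.27 for Stat3 (adjusted p = 0.00421 in edgeR) to 4.60 ± 0.35 for Socs3 (adjusted p = 3.01e-07), and the Stat3 call was lost without WT_EpiLC replicate 2 (0.83, adjusted p = 0.0728). Without cytokines the WT members went in both directions. At day 2, 3 were higher and 1 lower, where 34.4% were called: Socs3 by log2 2.01 ± 0.33, Il6st by 1.44 ± 0.21 and Junb by 1.15 ± 0.26 were higher, and Pim1 was lower at -1.54 ± 0.26. At day 6, 3 were higher and 3 lower, where 60.7% were called. Socs3, at 1.77 ± 0.33, Il6st, at 1.53 ± 0.21, and Lifr, at 1.15 ± 0.43, were higher than in WT EpiLCs, and Pim1, at -1.23 ± 0.26, Junb, at -1.65 ± 0.28, and Bcl3, at -2.73 ± 0.58, were lower. The Lifr call was lost without WT_EpiLC replicate 1 (adjusted p = 0.0581), WT_EpiLC replicate 2 (adjusted p = 0.184) or WT_day6_no_cytokines replicate 1 (adjusted p = 0.474). With library size alone Pim1 was at -0.52 (adjusted p = 0.113), and with only the libraries compared Bcl3 did not pass (adjusted p = 0.0646).

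In TKO cells at day 2 no member passed the test as lower than in EpiLCs. At day 2 without cytokines 3 members were higher than in TKO EpiLCs, where 18.7% of all genes were called: Bcl3 by log2 2.22 ± 0.40 (adjusted p = 0.00206 in edgeR), Socs3 by 1.15 ± 0.35 (adjusted p = 0.0338) and Il6st by 0.89 ± 0.20 (adjusted p = 0.00745). The Socs3 and Il6st calls each were lost without at least 1 library. At day 2 with cytokines 4 members were higher, where 14.3% were called: Socs3 by 4.59 ± 0.35, Bcl3 by 4.33 ± 0.41, Junb by 2.7 ± 0.27 and Il6st by 0.87 ± 0.20 (adjusted p from 1.6e-06 to 0.00857), with the Il6st call lost without TKO_EpiLC replicate 1 (adjusted p = 0.0908) or TKO_day2_plus_cytokines replicate 2 (adjusted p = 0.0654). These 2 comparisons share the TKO EpiLC libraries, as the WT comparisons share the WT EpiLC libraries.

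Set in order of their means, the 9 conditions fell differently for the receptor and for the targets Socs3, Bcl3 and Junb. For Socs3 the 3 conditions with cytokines came first, with means of 1590 ± 490 (SD, n = 2) in TKO cells at day 6, 961 ± 16.9 in WT cells at day 6 and 869 ± 58.1 in TKO cells at day 2, and WT cells at day 2 followed with 159 ± 32.1. The EpiLCs came last, with 41.6 ± 7 in WT and 36.3 ± 9.28 in TKO cells, which overlapped. For Bcl3 and Junb the same 3 conditions came first, with the TKO conditions above the WT one. Pim1, also a target, had these 3 conditions first too, but with WT cells highest at 3595 ± 618, overlapping the TKO condition next in order. For Lifr the highest mean was that of WT cells with cytokines, 2739 ± 231, followed by TKO cells with cytokines at day 6, 1328 ± 81.8, and the other TKO conditions, between 867 and 922, overlapped each other. For Il6st the WT cells with cytokines, 2316 ± 0.601, were likewise above all others, the 4 TKO conditions after aggregation, with means between 1050 and 1183, each overlapped the next in order, and WT EpiLCs were lowest at 258 ± 5.26. For Stat3 the same 3 conditions with cytokines came first, but its range was the narrowest of the 7 as a ratio, from 196 ± 11.1 in WT cells at day 2 to 884 ± 189 in TKO cells with cytokines at day 2, and most neighbours in its order overlapped.

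Levels of different genes were compared per kilobase of GENCODE exon. The counts were over refGene exons, which can differ from these in extent, so this comparison between genes is approximate. Pim1 was the highest member in WT and TKO EpiLCs and in both day 6 conditions with cytokines, at 1156 ± 199 and 1072 ± 32.1 normalised counts per kilobase with cytokines in WT and TKO cells. Socs3 was the sixth of the 7 in WT EpiLCs at 16.3 ± 2.74 and the second in both day 6 conditions with cytokines, at 377 ± 6.61 in WT and 623 ± 192 in TKO cells. On this scale Lifr (264 ± 22.3) and Il6st (211 ± 0.0548) were close to Junb (272 ± 7.03) in WT cells with cytokines.

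The other ligands, receptors and kinases of the pathway were measured in the same way. Of 8 ligand genes of the interleukin 6 family, 7 were tested, and 3 were higher with cytokines in WT cells at day 6 and none in TKO cells at either day. Over all genes tested, 29.6% were called as higher in that WT comparison, and 2.05% and 2.56% in TKO cells at days 2 and 6. Lif itself read 4.99 and 15.1 normalised counts in WT cells without cytokines at day 6 and 211 and 246 with them (log2 4.74 ± 0.50, adjusted p = 1.13e-06 in edgeR). In TKO cells Lif read 249 and 269 without and 283 and 211 with cytokines at day 2, and 167 and 213 without and 133 and 195 with cytokines at day 6, which overlap. In WT cells Lif read 77.1 and 80 as EpiLCs and 120 and 65.3 at day 2, and TKO EpiLCs read 180 and 84.7. Ctf1, the cardiotrophin 1 gene, was higher with cytokines in WT cells (log2 2.19 ± 0.42). Osm, the oncostatin M gene, had 0 counts in both WT libraries without cytokines, and its mean of 36.3 normalised counts with cytokines was at least 10.4-fold higher, taking 3 counts per library as the floor.

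Of 4 other receptor genes, 3 were tested, and Il6ra was higher (log2 3.24 ± 0.50) and Il11ra1 and Cntfr lower (log2 -1.19 ± 0.40 and -5.41 ± 0.66) with cytokines in WT cells, while none passed in TKO cells. Osmr, the oncostatin M receptor gene, was not among the genes tested and read 0 in all 4 EpiLC libraries and at most 8.4 normalised counts elsewhere. Among 4 Janus kinase genes and Ptpn11, Jak3 (log2 5.21 ± 0.26), Tyk2 (1.55 ± 0.22) and Jak1 (0.69 ± 0.13) were higher and Ptpn11 (-0.44 ± 0.16) and Jak2 (-1.06 ± 0.33) lower in WT cells. The share called over all genes tested was 58.2% in WT cells, and 4.52% and 5.61% in TKO cells at days 2 and 6. With only the libraries compared, Ptpn11 and Il11ra1 did not pass in WT cells (adjusted p = 0.128 and 0.0752 in edgeR). With library size alone Jak1 did not pass there (0.39, adjusted p = 0.0683). The WT call of Jak2 was lost without WT_day6_no_cytokines replicate 1 (-0.81) or WT_day6_plus_cytokines replicate 1 (-0.94). In TKO cells Jak3 alone passed at day 2 (0.85 ± 0.22, adjusted p = 0.0418 in edgeR) and none passed at day 6. The Jak3 call was lost without any 1 of the 4 libraries (adjusted p from 0.0645 to 0.298) and with library size alone (0.39, adjusted p = 0.286).

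Jak1 read 769 and 794 normalised counts in WT cells without and 1242 and 1210 with cytokines at day 6. In TKO cells Jak1 read 871 and 898 without and 1038 and 940 with cytokines at day 2, and 1145 and 1217 without and 1398 and 1333 with them at day 6. WT EpiLCs read 421 and 472 for Jak1, WT cells at day 2 read 775 and 780, and TKO EpiLCs 780 and 759. Jak1 was thus lowest in WT EpiLCs. Tyk2 read 429 and 306 in WT cells without and 1025 and 1073 with cytokines at day 6, and between 314 and 514 in the other 14 libraries. Jak2 read 629 and 459 in WT cells without and 232 and 275 with cytokines at day 6, 417 and 197 in WT cells at day 2, and 27.3 and 52.8 in WT EpiLCs. In TKO cells Jak2 read 80.4 and 95.7 in EpiLCs and between 144 and 279 in the 8 aggregate libraries.

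Among other STAT genes, Stat4 (log2 5.62 ± 0.52), Stat5a (1.66 ± 0.40) and Stat6 (1.52 ± 0.21) were higher and Stat5b (-0.90 ± 0.28) was lower with cytokines in WT cells, and none of these 4 passed in TKO cells. Of 14 further inhibitor genes, which encode SOCS and PIAS proteins and phosphatases, 6 were higher and 4 lower in WT cells, led by Ptpn6 (6.52 ± 0.26), Socs2 (2.67 ± 0.26) and Pias2 (1.13 ± 0.17), with Socs6 (-0.62 ± 0.22), Socs4 (-1.54 ± 0.23) and Ptpn1 (-1.66 ± 0.23) at the other end. Of all genes tested, 58.2% were called in that WT comparison, and 4.52% and 5.61% in TKO cells at days 2 and 6. With only the libraries compared, Stat5a, Stat5b and Socs6 did not pass in WT cells (adjusted p = 0.0652, 0.106 and 0.0819 in edgeR). In TKO cells Pias4 alone passed, at day 2 (0.55 ± 0.15, adjusted p = 0.0464 in edgeR) and at day 6 (0.67 ± 0.15, adjusted p = 0.0167). The day 2 call of Pias4 was lost without any 1 of the 4 libraries and the day 6 call without 3 of them, and with library size alone the values were 0.098 (adjusted p = 0.716) and 0.15 (adjusted p = 0.565). The median log2 fold change of the 14 inhibitors was -0.04 at day 2 and 0.08 at day 6 in TKO cells, against 3.43 and 3.77 for Socs3.

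Of 14 further genes known as STAT3 targets in ESCs or other cells, 9 were higher and 3 lower with cytokines in WT cells at day 6, 2 were higher in TKO cells at day 2 and 4 at day 6, with none lower in TKO cells. The share called over all genes tested was 58.2%, 4.52% and 5.61% in that order. Klf4, a transcription factor gene of the naive state, read a mean of 39.5 normalised counts without and 1699 with cytokines in WT cells and was higher in TKO cells at day 2 (log2 2.16 ± 0.35, adjusted p = 0.00377 in edgeR) and day 6 (2.46 ± 0.35, adjusted p = 0.00143). Pim3, which encodes a kinase related to PIM1, was higher in TKO cells by 1.28 ± 0.20 and 1.56 ± 0.20 (adjusted p = 0.0035 and 0.000785). At day 2 the Klf4 call was lost without replicate 1 of either TKO condition (adjusted p = 0.0562 and 0.055) and the Pim3 call without TKO_day2_no_cytokines replicate 2 (adjusted p = 0.0632). Tfcp2l1 and Icam1 were higher in TKO cells at day 6 (log2 1.48 ± 0.34, adjusted p = 0.0207, and 1.23 ± 0.33, adjusted p = 0.0399, in edgeR), and both calls were lost without any 1 of the 4 libraries (adjusted p from 0.0629 to 0.15 for Tfcp2l1 and from 0.0758 to 0.255 for Icam1). The Icam1 call was also lost with library size alone as scaling (log2 0.71, adjusted p = 0.0893). In WT cells Tfcp2l1 (7.67 ± 0.46) and Icam1 (6.95 ± 0.49) had the highest fold changes of the list among genes with reads in both groups, with Klf5 close to Icam1, and Gbx2 (-1.62 ± 0.36), Myc (-1.12 ± 0.33) and Bcl2l1 (-0.95 ± 0.18) were lower. The Myc call was lost without WT_day6_no_cytokines replicate 1 (-0.81) or WT_day6_plus_cytokines replicate 1 (-1.07). Pramel7 had 0 counts in both WT libraries without cytokines, so its mean of 16.4 normalised counts with cytokines was at least 4.72-fold higher, by the same floor. The median of the list was log2 1.78 in WT cells, 0.64 in TKO cells at day 2 and 0.45 at day 6.

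**Figure D4:**
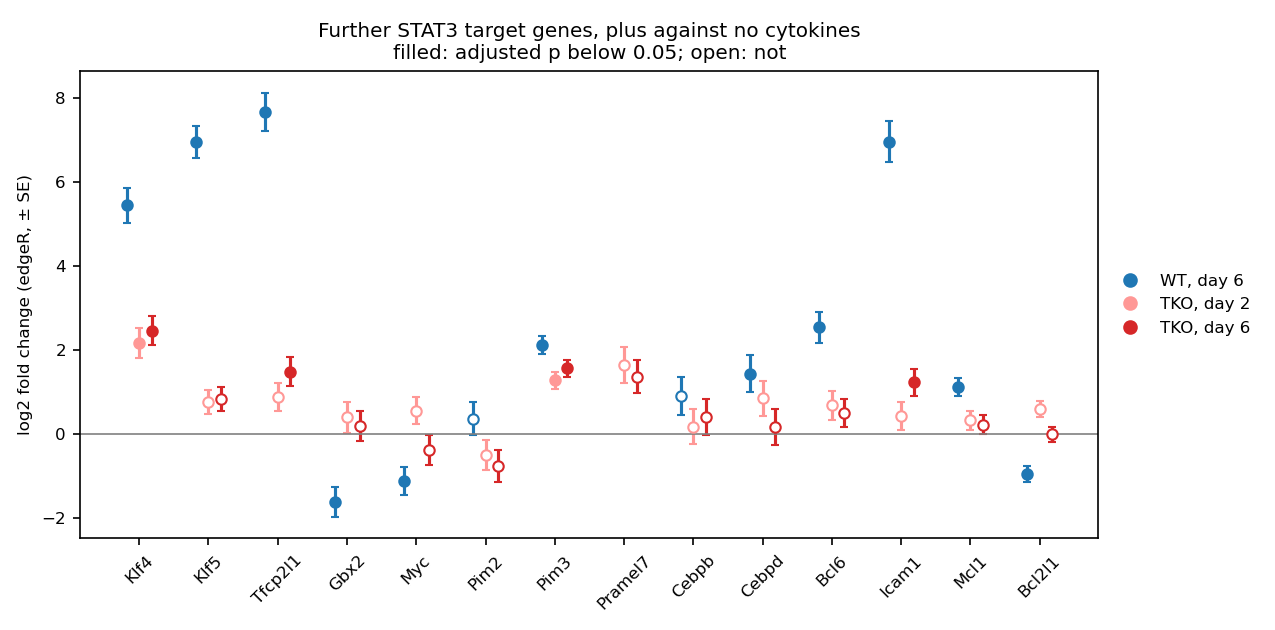
Log2 fold change of cells with cytokines over cells without for 14 further STAT3 target genes (y axis, points, with the standard error of the edgeR fit as bars) in WT cells at day 6 and TKO cells at days 2 and 6; filled points passed an adjusted p of 0.05, and no WT point is drawn for Pramel7, which had 0 counts without cytokines. Klf4 and Pim3 are filled in all 3 comparisons.

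Junb, Socs3 and Bcl3 can respond within minutes to many stimuli, and immediate early genes were therefore listed beside them. Of 10 such genes, 7 were higher and 2 lower with cytokines in WT cells at day 6, and 1, Ier2, was higher in TKO cells at each day. Of all genes tested, 58.2% were called in WT cells, and 4.52% and 5.61% in TKO cells at days 2 and 6. Their summed level was 133 to 204 CPM without and 265 to 292 CPM with cytokines in WT cells, 148 to 166 and 258 to 303 CPM in TKO cells at day 2, and 153 to 164 and 250 to 261 CPM in TKO cells at day 6. Fos read 11.4 and 19.2 normalised counts without and 41.9 and 74.5 with cytokines in TKO cells at day 2 (log2 1.95, adjusted p = 0.169 in edgeR) and Egr1 86.1 and 143 without and 121 and 75.7 with them. At day 6 in TKO cells Fos read 49.5 and 41.6 without and 92.4 and 191 with cytokines, whereas Egr1 read 160 and 148 without and 85.7 and 72.3 with them. Ier2 alone had TKO means of 1170 without and 2555 with cytokines at day 2, and of 1058 and 2232 at day 6. The part of a general immediate early response in the changes of Junb, Socs3 and Bcl3 was not tested.

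Markers of other cells were summed in the TKO libraries in the same way. In TKO cells the 8 germ cell markers summed to 509 to 638 CPM without and 609 to 756 CPM with cytokines at day 2, and to 637 to 705 and 888 to 937 CPM at day 6, and the 8 neural markers to between 89.7 and 157 CPM in these 8 libraries. These sums weigh each gene by its level. In TKO cells at day 6 Nanog read a mean of 6844 normalised counts without and 9725 with cytokines, and Prdm1 453 and 159. The means of Tfap2c and Dppa3 were also lower with cytokines there, and those of Prdm14, Nanos3, Dnd1 and Kit were higher. In the TKO comparisons 0 of 8 germ cell markers passed at day 2 and 1, lower with cytokines, at day 6, and 2 of 8 neural markers were lower at each day. Of all genes tested, 4.52% were called at day 2 and 5.61% at day 6. The 8 mesoderm markers summed to 79.4 to 133 CPM without and 18.9 to 75 CPM with cytokines at day 2 and to 122 to 149 and 31.9 to 40.2 CPM at day 6 in TKO cells, against 16.4 to 23.3 and 8.19 to 24.4 CPM in WT cells at day 6. Markers of endoderm, of blood and endothelium and of astrocytes summed to at most 31 CPM in every library. The part of cell makeup in the changes of the 7 members was not tested.

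Over the 9 condition means of log2 CPM, and among 11996 tested genes with a mean of at least 50 normalised counts, the genes whose pattern was most like that of Socs3 were Fam102a (Pearson's r = 0.962), Cryz (0.962), Sptlc2 (0.957), Mccc1 (0.952) and Amacr (0.949). For Lifr they were Rnf216 (0.963), Rabgef1 (0.957), Tbc1d23 (0.955), Arid5b (0.954) and Aifm2 (0.953). With Spearman's rank correlation 2 of the 5 genes named for Socs3 and 0 of the 5 for Lifr were again among the closest 5, so that the lists depend on the measure. Among the members themselves the closest pairs were Bcl3 with Pim1 (r = 0.881), Bcl3 with Junb (0.876) and Lifr with Il6st (0.874), and the furthest was Lifr with Junb (0.382). The 9 means share the 2 genotypes and the cytokine mix and are given as a description.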

How the data were processed

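RNA of 18 libraries was analysed as raw counts per gene, which the authors deposited as 1 table. Per the labels and the study's methods, ribosomal RNA-depleted directional libraries were sequenced, reads were trimmed with Trim Galore 0.5.0 and cutadapt 1.16, aligned to mm10 with STAR 2.7.1a, and counted over refGene exons with featureCounts of Subread 1.5.2, without regard to strand and without multi-mapping reads. A gene that shares reads with a near-identical copy can thereby be undercounted.

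From the counts, normalised counts were made with DESeq2 1.42.0 size factors and differences tested with edgeR 4.0.16 (TMM factors, filterByExpr, quasi-likelihood test, 1 fit of 9 groups, Benjamini-Hochberg adjustment) in R 4.3.3. A gene was called at an adjusted p below 0.05. The labels call the 2 libraries of a condition biological replicates. The tests were tried on simulated counts with known changes. The rule for wider lists named up to 3 called genes in each direction for each comparison. Icam1 in TKO cells, Klf5, Ier2, Tet2 and the single germ cell markers in TKO cells were named after their values were seen. The 7 members and all lists were chosen with earlier results of these data known. Total counts of 11286050 to 41257861 per library and 2 libraries a condition limit the precision. Alternatives were DESeq2, other scaling factors, other filters and limits, a replicate block, fits of only the libraries compared, and leaving out each library. ESC libraries and WT aggregates given cytokines and taken at day 2 were not used here. A result for 1 gene of a wider list is not reported here.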

Additional observations from a re-analysis of the deposited data

Results flagged for a closer look

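The cytokine effect at day 6 differed between WT and TKO cells, by edgeR's test of the difference itself, for 5 of the 7 members. As WT minus TKO on the log2 scale, the difference was 3.71 for Bcl3 (adjusted p = 0.000285), 2.48 for Pim1 (adjusted p = 7.11e-05), 1.59 for Il6st (adjusted p = 0.000342), 1.54 for Lifr (adjusted p = 0.047) and 1.42 for Junb (adjusted p = 0.00699). The test called 42.9% of all genes. The Lifr call was lost in 10 of the 16 alternatives, and the Junb call with only the libraries compared (adjusted p = 0.0554 in edgeR). Sorting, described for the WT cells with cytokines alone, cannot be told apart from genotype here. For Bcl3, Pim1 and Junb the TKO cells without cytokines were higher than the WT cells without cytokines. Il6st was higher in TKO cells without cytokines (log2 0.51, a call lost in some fits) and lower in them with cytokines (-1.08). For Lifr neither of these genotype differences at day 6 passed. Groups of 2 libraries were too small to be screened for outlying samples.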

How the results depend on the processing

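Socs3, Bcl3 and Junb kept their cytokine calls at an adjusted p below 0.05 under every other fit, except Bcl3 in TKO cells at day 2 without either library lacking cytokines. Junb in TKO cells at day 6, at log2 1.80, was below the limit of 2 used next, which left 2 members there, with 308 of all genes called. With a log2 fold change beyond 2 also asked for, the number of the 7 members called fell to 2 for the interaction at day 6, to 0 for TKO against WT in EpiLCs, 2 at day 2 and 2 at day 6 without cytokines and 0 at day 6 with them, and, against EpiLCs, to 1 and 1 for WT cells without cytokines at days 2 and 6, 4 for WT cells with cytokines and 1 for TKO cells at day 2 without. Over all 16582 genes this limit left 3708 for the interaction, 383, 2074, 3949 and 924 for TKO against WT in that order, and 1901, 4519, 1914 and 880 against EpiLCs in that order. At an adjusted p below 0.01 TKO against WT gave 1 member in EpiLCs and 1 at day 6 with cytokines. That limit left 567 and 1424 of all genes in these comparisons. Fits of only the libraries compared gave 1 and 4 members there. Library size alone gave 5 members for TKO day 2 without cytokines against EpiLCs.

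Library size alone moved the median log2 fold change of all genes by -0.29 in the WT cytokine comparison and by -0.45 and -0.51 in TKO cells at days 2 and 6. The split of all genes called then went from 4916 higher and 4743 lower to 3636 and 5845 in WT cells, from 340 and 409 to 100 and 2672 in TKO cells at day 2, and from 425 and 506 to 109 and 3138 at day 6. DESeq2 called 1492 genes in TKO cells at day 2 and 1570 at day 6, against 749 and 931 in edgeR, and leaving out 1 library gave 80 to 176 and 165 to 371. The cause was not tested.

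Only values that did not pass the test changed sign. Lifr in WT cells at day 2 against EpiLCs was log2 -0.028 in DESeq2 and -0.020 with RLE factors. With library size alone, Il6st in the TKO cytokine comparison at day 6 was -0.43, Stat3 in the interaction 0.17, Stat3 and Pim1 in the day comparison -0.057 and -0.024, Socs3 and Junb for TKO against WT EpiLCs 0.15 and 0.29, Bcl3 in WT cells at day 2 against EpiLCs 0.30 and Lifr in TKO cells with cytokines at day 2 against EpiLCs 0.045. Without Rn45s in the library size, Il6st was -0.047, Stat3 0.073 and Junb 0.075 in the same comparisons, and Stat3 in the day comparison was -0.018 with only the libraries compared.

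Leaving out 1 library changed which members were called in every comparison except the TKO cytokine effect at day 6 and the day comparison. It gave values on both sides of 0 for TKO against WT EpiLCs (Socs3 -0.43 to 0.11, Bcl3 -0.041 to 1.03, Junb -0.18 to 0.12), at day 6 without cytokines (Socs3 -0.51 to 0.22, Stat3 -0.074 to 0.59) and with them (Pim1 -0.29 to 0.069). The same held for WT day 2 against EpiLCs (Lifr -0.17 to 0.25, Bcl3 -0.82 to 0.25), TKO day 2 against EpiLCs (Stat3 -0.19 to 0.36 and Lifr -0.59 to 1.12 without cytokines, Lifr -0.66 to 1.05 with them), TKO cytokine effects (Il6st -0.10 to 0.061 and Lifr -0.40 to 0.20 at day 2, Il6st -0.039 to 0.19 at day 6), the interaction (Stat3 -0.32 to 0.34) and the day comparison (Pim1 -0.15 to 0.26, Socs3 -0.14 to 0.71, Stat3 -0.25 to 0.25, Il6st -0.021 to 0.21).

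Replicate numbers are shared by the conditions, but of 36 pairs of conditions 10 had deviations of same-numbered libraries correlated above 0.1 and 6 below -0.1, from -0.24 to 0.32. The numbers thus do not pair the libraries in the same way over all conditions, and a pairing within some of them was not tested. With the replicate number as a block, 6, 3 and 3 members were called in the WT day 6 and TKO day 2 and day 6 cytokine comparisons, as without it, and the Lifr call in the interaction was lost (adjusted p = 0.058), leaving 4 members. Crossed numbers, chosen after seeing the data, gave 9690 genes called in WT cells at day 6 and 2928 for TKO day 2 without cytokines against EpiLCs, against 9659 and 3095.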
